A study of Homo sapiens with 24 samples.

Results

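The transcriptome of HP1γ-depleted Nalm6 cells was compared with that of control cells while both were under dexamethasone (dex), a synthetic glucocorticoid. Nalm6 is a human B-cell precursor acute lymphoblastic leukemia line. The comparison held 3 libraries of cells expressing shRNA against HP1γ (shHP1γ; HP1γ is the product of CBX3) and 3 of cells expressing a non-specific shRNA (shNS), 6 of the 24 libraries of the series. Dex was given to both groups at 100 nM, for 8 h. Their counterparts in ethanol, the vehicle, were used for reference. So were cells expressing shRNA against G9a or GLP, in dex and in ethanol. Each of these groups had 3 libraries. All cells had been transduced with lentivirus and selected with puromycin, the methods name a single vector for HP1γ, and resistant populations rather than clones were used. The libraries were chosen by the treatment and shRNA in their labels, not by any measured value, and every transcript that passed the expression filter was tested, whether or not dex regulates it.

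HP1 proteins bind histone H3 methylated at lysine 9 through a chromodomain and bring other factors to chromatin through a chromoshadow domain. They are known for silencing in heterochromatin, and HP1γ is also found in the bodies of active genes. The glucocorticoid receptor is a hormone-bound transcription factor that induces some genes and represses others, and in lymphoid cells it triggers growth arrest and apoptosis. G9a and GLP are lysine methyltransferases that act as coregulators of that receptor.

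The 3 replicates of each condition were made on different days, and the replicate number was kept as a block. No source used here says that libraries of the same number share a day. The 24 libraries held 9289533 to 14387770 counts each. The shNS dex libraries held 10658972 to 12415531 and the shHP1γ dex libraries 10708848 to 13323421. Replicate 1 of shHP1γ stood apart from its group. Its correlation with the mean of the other 2 was 0.9868 on the log scale over transcripts, against 0.9942 to 0.9974 for the other 5 libraries compared. Per transcript, its log2 difference from shNS of the same replicate number had an SD of 0.314, against 0.250 and 0.224 for replicates 2 and 3, over 5605 transcripts. The same difference in ethanol gave 0.318, against 0.232 and 0.204. The main counts are therefore also given without replicate 1. Because bulk RNA was sequenced, fewer cells of a type and less RNA per cell cannot be told apart.

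The targeted gene could be followed only at low depth. Of CBX3, on chromosome 7 from 26240782 to 26253227 (hg19), 2 transcripts were tested. NM_016587 stood at 3.59, 4.12 and 3.23 CPM (counts scaled to the library total) in shNS dex replicates 1 to 3 and at 1.59, 2.88 and 2.63 in shHP1γ dex, from 18 to 48 reads per library. The groups did not overlap, but the log2 fold change of -0.61 (SE 0.22) did not pass the test (adjusted p = 0.142, edgeR). NM_007276 stood at 2.76, 3.44 and 3.07 CPM in shNS and at 2.83, 3.1 and 2.35 in shHP1γ (log2 fold change -0.15, SE 0.24, adjusted p = 0.842, edgeR). NM_016587 stood at 3.16 to 5.89 CPM in the 6 dex libraries of shG9a and shGLP cells, and the difference of shHP1γ from their mean passed the test (log2 difference -0.85, SE 0.19, adjusted p = 0.00896, edgeR). With so few reads the counts do not measure how deep the depletion was. By immunoblot and RT-qPCR, the paper reports efficient loss of HP1γ protein and mRNA in the sequenced cells. Of the list of HP1 proteins and the enzymes that write, read or erase H3K9 methylation, 22 of 32 genes were tested, and 0 were called by edgeR. They included CBX5, which encodes HP1α (log2 fold change -0.49, adjusted p = 0.254), EHMT1, which encodes GLP (0.01, adjusted p = 0.999), and TRIM28, a corepressor that binds HP1 (0.09, adjusted p = 0.668).

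Between shHP1γ and shNS cells in dex, 416 of 10167 transcripts (4.09%) differed by edgeR's quasi-likelihood test. The limit was 0.05 after Benjamini-Hochberg adjustment. An effect of either shRNA other than loss of HP1γ was not tested. The 416 transcripts belonged to 414 genes. With shHP1γ, 259 transcripts were higher (2.55%) and 157 lower (1.54%). The proportion of rises depended on the scaling. It was 62.3% with the upper-quartile factors used here, 55.4% with TMM factors, 45.2% with DESeq2 and 35.2% with factors set before the filter, so no direction predominated. Most changes were small. The median log2 fold change was 0.60 over the higher and -0.38 over the lower transcripts, against 0.03 over all tested, and 154 called transcripts changed by less than 1.3-fold. At least 2-fold changes were found for 76 transcripts, of which 65 rose and 11 fell. The groups of 3 libraries did not overlap for 354 of the 416, where 15.7% of all tested transcripts showed no overlap (9.27% above and 6.41% below the controls).

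**Figure D1:**
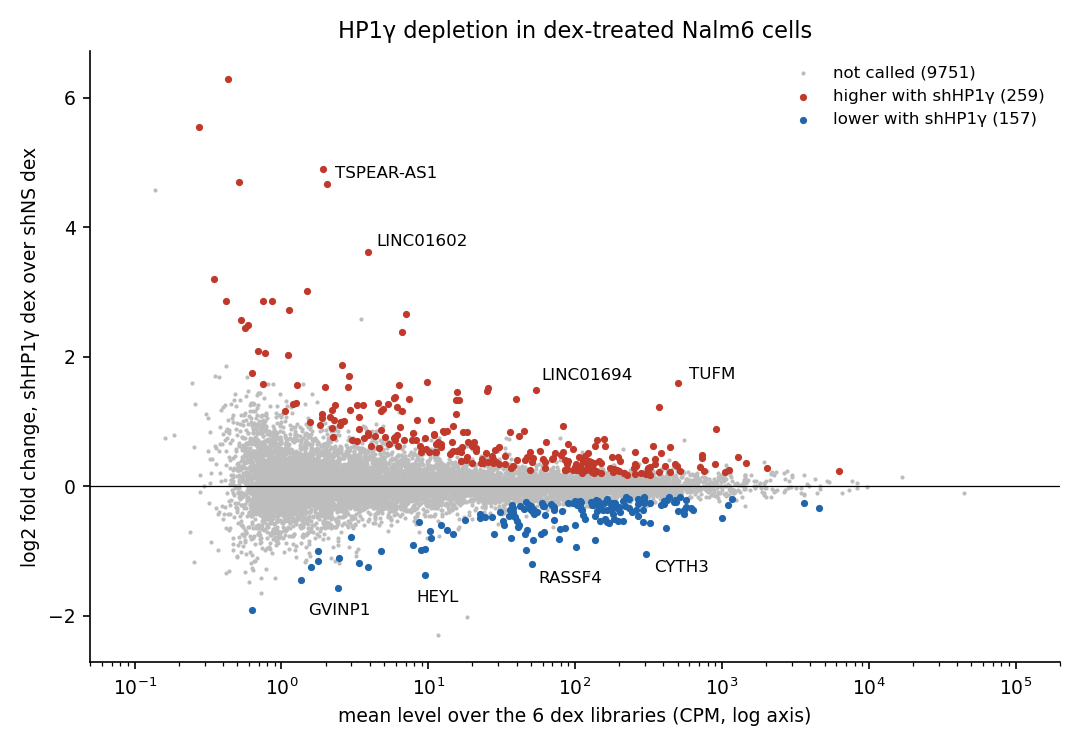
Each point is a transcript, with its mean level over the 6 dex libraries in CPM (log axis) against its log2 fold change, shHP1γ over shNS. The 259 higher and 157 lower transcripts are colored, and the largest rises lie at the left, among transcripts of low level.

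The 2-fold risers were mostly transcripts of low level. Their median level over the 6 libraries was 2.68 CPM, against 7.27 CPM for all tested, 25.2 CPM for all higher and 107 CPM for all lower transcripts. In shNS dex cells 24 of the 65 averaged under 1 CPM. Noncoding accessions made up 26 of these 65 (40%), 22.4% of the tested transcripts, 19.3% of the higher and 8.92% of the lower ones.

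The calls differed in how much they leaned on the libraries of 1 replicate number. Without replicate 1 of every condition 396 transcripts were called, 222 higher and 174 lower, and 255 of the 416 were among them. All 410 of the 416 that could still be tested kept their sign. Without replicate 2 the count was 204, and without replicate 3 it was 63. In 60 transcripts, 40 higher and 20 lower, the call held in each of these 3 fits. Of the 60, 44 were also called in ethanol, 35 of the 40 higher but only 9 of the 20 lower. The 20 lower ones included CYTH3, RASSF4, C1orf186, TXNIP, NFKBIA, TRAK2 and CCNE2, and the 40 higher ones TUFM, LINC01694, LINC01602, PHLDA1, KCNJ2, IER2 and ID3.

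TUFM had the smallest p of all transcripts. It encodes the mitochondrial translation elongation factor Tu and lies on chromosome 16 from 28853732 to 28857669. TUFM stood at 239, 242 and 269 CPM in shNS dex and at 658, 793 and 823 CPM in shHP1γ dex, so each depleted library lay above every control library. The means were 250 ± 16.5 and 758 ± 88.1 CPM (SD, n = 3), a 3.03-fold rise (log2 fold change 1.60, SE 0.06, adjusted p = 2.19e-14, edgeR). TUFM stood at 706 to 852 CPM in the 6 dex libraries of shG9a and shGLP cells and at 265 to 291 CPM in shNS ethanol cells. The difference of shHP1γ from the mean of shG9a and shGLP did not pass the test (log2 difference -0.03, SE 0.05, adjusted p = 0.819, edgeR).

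LINC01694, a long noncoding RNA gene on chromosome 21 from 47010685 to 47023002, rose more with shHP1γ than with shG9a and shGLP. It stood at 29.1, 27.1 and 28.7 CPM in shNS dex and at 70.2, 80.5 and 87.4 CPM in shHP1γ dex. In shG9a and shGLP dex libraries it lay between 30.4 and 38.3 CPM, below every shHP1γ library. The log2 fold change was 1.49 (SE 0.09, adjusted p = 1.37e-10, edgeR) against shNS, and the difference from the mean of shG9a and shGLP passed the test as well (adjusted p = 4.95e-11, edgeR). LINC01602, on chromosome 8, was nearly silent in control cells. It stood at 0.643, 0.601 and 0.484 CPM in shNS dex and at 7.25, 7.27 and 6.96 CPM in shHP1γ dex, from 6 or 7 reads to 74 to 96 reads. With shG9a or shGLP it was at 0 to 0.0903 CPM. TSPEAR-AS1, antisense to TSPEAR on chromosome 21, had at most 3 reads in each shNS dex library and 39, 61 and 39 reads with shHP1γ. It was at least 15.1-fold higher, with the control set at the floor of 3 reads per library.

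Several protein-coding genes rose about 2- to 3-fold. FSTL4, a follistatin-like gene, was the steadiest, at 4.69, 4.81 and 4.92 CPM in shNS dex and 14.9, 14.8 and 14.4 CPM in shHP1γ dex (log2 fold change 1.61, SE 0.20, adjusted p = 1.42e-05, edgeR). PHLDA1, a pleckstrin-homology-like gene induced by growth factor signals, stood at 13, 13.8 and 12.7 CPM in shNS and at 35.1, 33.5 and 46 CPM in shHP1γ (log2 fold change 1.52, adjusted p = 3.46e-07, edgeR). KCNJ2, which encodes an inward rectifier potassium channel, stood at 13.5, 14.7 and 11.3 CPM in shNS and at 50.8, 34.8 and 26.1 CPM in shHP1γ. No library of one group overlapped the other for these genes. DDIT4L, a relative of the mTOR inhibitor DDIT4, rose from 222 ± 10.9 to 523 ± 104 CPM (SD, n = 3, log2 fold change 1.23). FBXO33, an F-box gene, rose by only 1.58-fold but with little spread, from 69.7, 72.7 and 64.2 CPM to 109, 108 and 109 CPM (adjusted p = 8.9e-08, edgeR).

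Among the largest rises, replicate 1 set the size for some. TSPAN8, a tetraspanin gene, stood at 24.6 CPM in shHP1γ dex replicate 1 and at 4.47 and 5.08 CPM in replicates 2 and 3, against 1.55 to 2.48 CPM in shNS. Its log2 fold change of 2.38 was 1.54 without replicate 1 (adjusted p = 0.0017, edgeR). LINC00861 stood at 22.1, 7.27 and 7.43 CPM against 1.13 to 2.32 CPM in shNS, and its log2 fold change went from 2.67 to 2.10 without replicate 1. In that fit the calls of NOL4L, LINC01262 and MXI1 were lost (adjusted p = 0.256, 0.0559 and 0.249, edgeR).

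**Figure D2:**
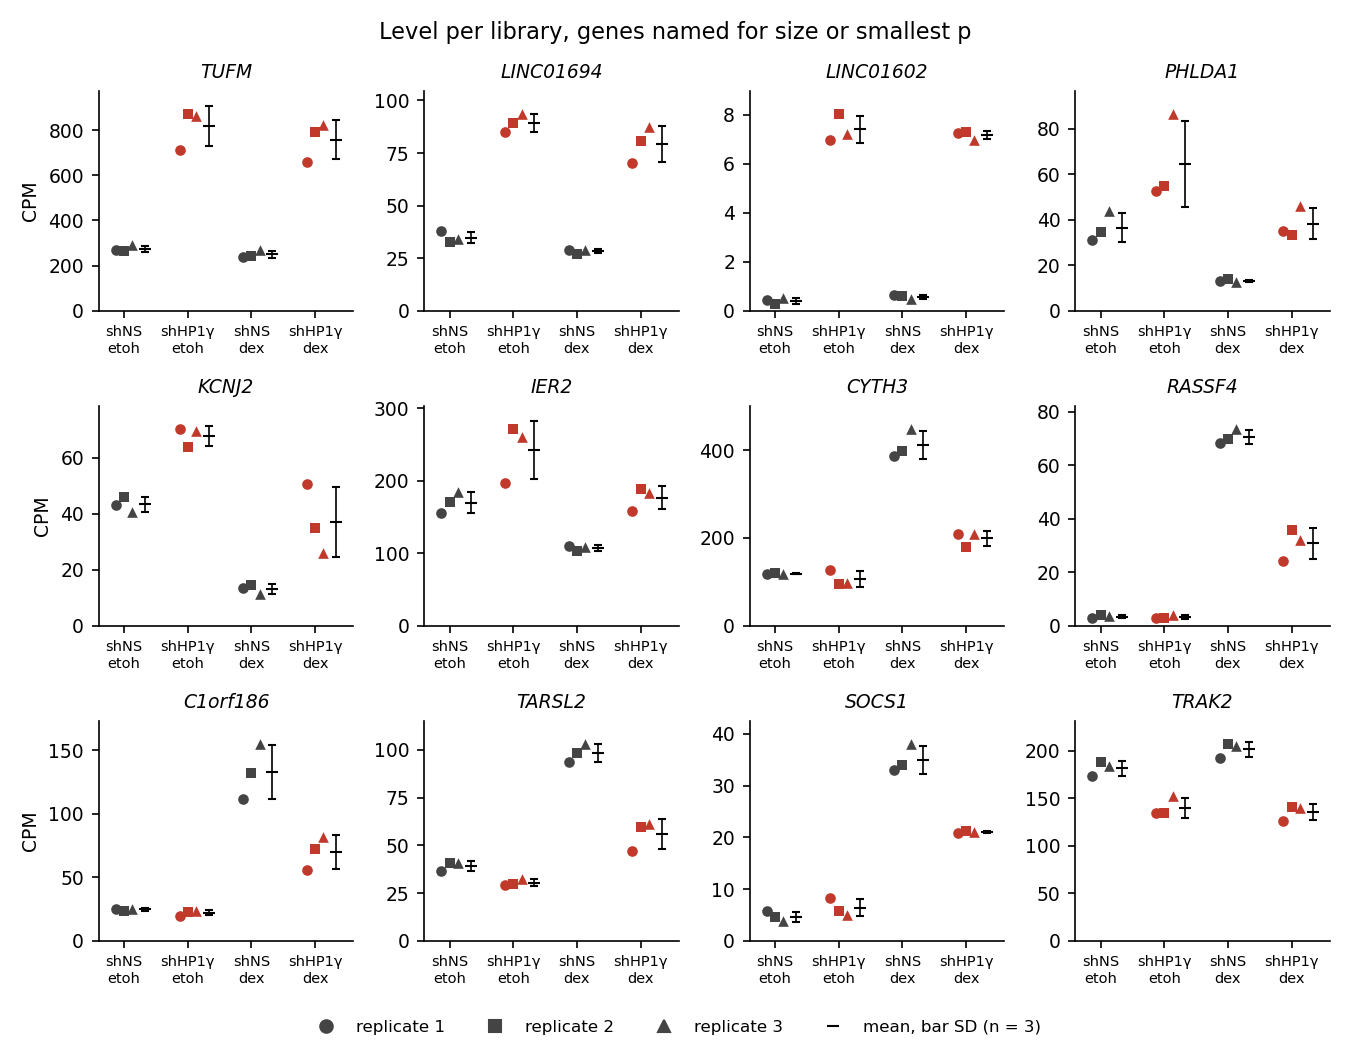
Level in CPM of 12 genes in each of the 12 shNS and shHP1γ libraries, with symbols for replicates and the mean and SD (n = 3) beside each group. TUFM, LINC01694 and LINC01602 are separated by shRNA in both treatments, whereas RASSF4 and C1orf186 are near one level in ethanol and lower with shHP1γ in dex. SOCS1 is lower with shHP1γ in dex but higher in each ethanol pair (log2 differences 0.45, 0.31 and 0.33).

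Of the falls, that of CYTH3 had the smallest p and a high level. CYTH3 encodes cytohesin-3, an exchange factor for ARF GTPases, and lies on chromosome 7 from 6201410 to 6312275. It stood at 387, 399 and 448 CPM in shNS dex and at 210, 180 and 209 CPM in shHP1γ dex, or 48.5% of control (log2 fold change -1.04, SE 0.09, adjusted p = 5.15e-08, edgeR). C1orf186, now named RHEX, a regulator of erythroid cell expansion, stood at 112, 132 and 155 CPM in shNS and at 55.7, 72.2 and 81.7 CPM in shHP1γ (log2 fold change -0.93, SE 0.10, adjusted p = 2.42e-06, edgeR). RASSF4, a member of the Ras association domain family, stood at 68.2, 69.8 and 73.5 CPM in shNS and at 24.3, 35.8 and 32.2 CPM in shHP1γ (log2 fold change -1.20, SE 0.16, adjusted p = 3.91e-05, edgeR). All depleted libraries of these genes lay below all control libraries.

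The upstream sequences of CYTH3 and C1orf186 are shown because both genes fell by about the same fold while their promoters differ in CG content. Each is the 250 bases before the start in RefSeq (GRCh38.p14), on the strand of the gene, with CG pairs in capitals. CYTH3 is on the minus strand at chr7:6272625-6272874 and has 34 CG pairs. C1orf186 is on the plus strand of that build, at chr1:206083345-206083594, and has 4.
CYTH3: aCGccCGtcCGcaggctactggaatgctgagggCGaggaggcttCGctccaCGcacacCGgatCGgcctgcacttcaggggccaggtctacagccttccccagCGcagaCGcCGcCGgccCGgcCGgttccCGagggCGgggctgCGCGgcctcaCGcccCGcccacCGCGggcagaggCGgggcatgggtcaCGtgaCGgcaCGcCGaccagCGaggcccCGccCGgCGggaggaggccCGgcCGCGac
C1orf186: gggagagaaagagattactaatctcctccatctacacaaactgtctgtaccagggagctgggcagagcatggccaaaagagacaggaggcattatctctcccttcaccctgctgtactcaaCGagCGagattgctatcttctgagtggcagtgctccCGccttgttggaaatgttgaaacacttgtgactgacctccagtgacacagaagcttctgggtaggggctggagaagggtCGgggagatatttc
Over the tested genes matched to this table (6989 of 9391), the median was 21 CG pairs. Over 115 matched genes that were lower it was 25, and over 176 that were higher it was 19. The glucocorticoid receptor hexamer AGAACA, searched on both strands, was in neither sequence. It was in 7.83% of the promoters of lower, 9.66% of higher and 8.11% of all tested genes. The AP-1 site TGANTCA was in 2.61% of lower, 6.82% of higher and 3.75% of all tested promoters. These are descriptions of the window and were not tested.

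Among called transcripts with a mean of at least 2 CPM over the 6 libraries, the largest falls by fold were at low levels. GVINP1, a pseudogene of the interferon-inducible very large GTPases, stood at 3.03, 5.15 and 2.66 CPM in shNS dex and at 1.77, 0.984 and 0.941 CPM in shHP1γ dex (log2 fold change -1.57). HEYL, a Notch target and transcriptional repressor, stood at 11.9, 12.1 and 17.2 CPM in shNS and at 6.46, 4.54 and 4.7 CPM in shHP1γ (log2 fold change -1.37). P2RY14, a receptor for UDP-sugars, stood at 4.41, 6.27 and 5.57 CPM and at 2.57, 1.97 and 2.35 CPM. Each had non-overlapping groups, but GVINP1 and P2RY14 did not pass without replicate 2 (adjusted p = 0.13 and 0.11, edgeR) and none of the 3 passed without replicate 3. Falls of smaller size were steadier. TRAK2, an adaptor of mitochondrial transport, stood at 192, 207 and 205 CPM in shNS and 126, 141 and 140 CPM in shHP1γ (log2 fold change -0.57, SE 0.05, adjusted p = 1.01e-07, edgeR). LRRC14B, a leucine-rich repeat gene, fell from 386 ± 18.3 to 259 ± 12.3 CPM (SD, n = 3, log2 fold change -0.57, adjusted p = 2.42e-06, edgeR).

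Of the transcripts that dex induced in shG9a and shGLP cells, a larger share than of all transcripts was lower with shHP1γ in dex. To avoid naming them from the libraries under comparison, induction was read in shG9a and shGLP cells, which share no library with either group. There, 118 transcripts (1.16%) were induced at least 2-fold and 9 (0.0885%) repressed at least 2-fold. Transcripts that need G9a or GLP for their induction can be missing from the 118. CYTH3, TXNIP and NFKBIA were not among them. Of the 118, 22 were lower with shHP1γ in dex (18.6%) and 2 were higher, where 1.54% of all tested transcripts and 1.34% of those neither induced nor repressed were lower. The median log2 fold change of the 118 was -0.37 in dex, against 0.03 over all tested, and 0.01 in ethanol. A negative value was found for 82.2% of the 118 in dex, against 44% of all tested. Among the 22 were TARSL2, a threonyl-tRNA synthetase gene, SOCS1 and SOCS2, suppressors of cytokine signaling, KCNK3, a potassium channel gene, SMIM3 and UBASH3B, a phosphatase gene. TARSL2 stood at 93.7, 98.5 and 103 CPM in shNS dex and at 47, 59.7 and 61.4 CPM in shHP1γ dex (log2 fold change -0.81, SE 0.08, adjusted p = 1.25e-06, edgeR). The 2 that were higher were FAM43A (log2 fold change 0.35) and CDH5, a cadherin gene (1.29), whose call was lost without replicate 1 (adjusted p = 0.197, edgeR) and without replicate 3 (0.249). Of the 9 repressed transcripts 0 were called by edgeR, and their median log2 fold change was 0.41 at a median level of 0.826 CPM. Without replicates 1, 2 and 3 in turn, 25 of 114, 9 of 101 and 3 of 80 induced transcripts were called lower. Over all genes, each by its transcript of highest level, 172 of 9154, 66 of 9290 and 21 of 9112 were lower in these fits.

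**Figure D3:**
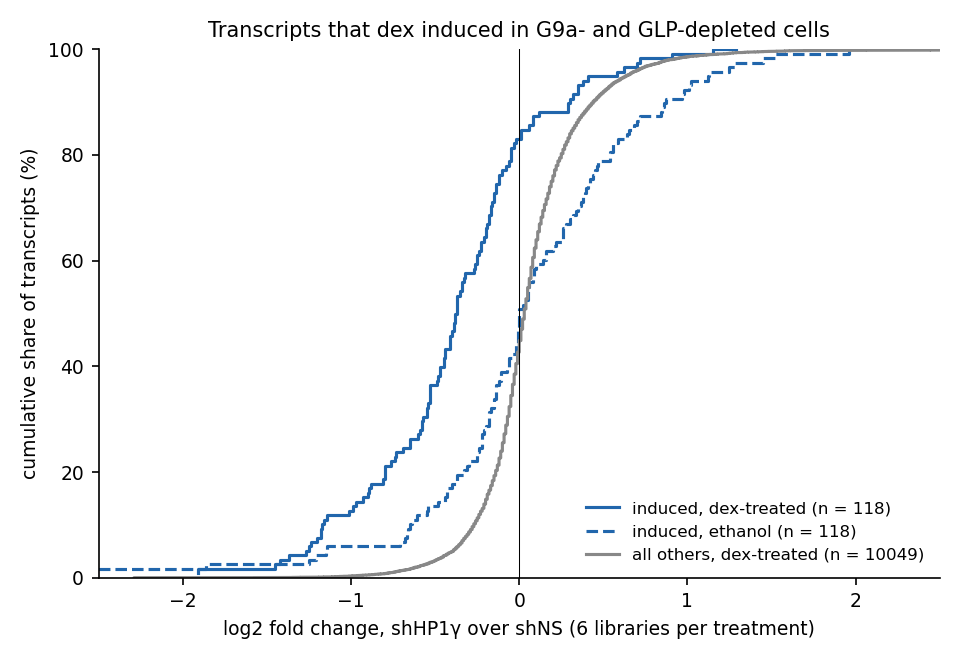
Cumulative share of transcripts (percent) against the log2 fold change on HP1γ depletion, for 118 transcripts induced by dex in shG9a and shGLP cells and for all others. In dex the induced transcripts lie to the left of the rest, with a median of -0.37, and in ethanol their median is 0.01.

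By gene list, the fall was found among known glucocorticoid receptor targets. Over 9383 genes, each by the transcript with the highest level, 4.39% were called. Of 36 tested genes of the receptor and its known targets, 10 were lower, 2 were higher and 24 did not pass. The median log2 fold change was -0.22 in dex and 0.05 in ethanol, against 0.03 and 0.02 over all genes. The 10 included TXNIP, an inhibitor of thioredoxin (log2 fold change -0.83, adjusted p = 2.81e-06), NFKBIA, which holds NF-κB in the cytoplasm (-0.46, adjusted p = 0.000214), and the antiproliferative genes BTG1 (-0.49, adjusted p = 0.000519) and BTG2 (-0.38, adjusted p = 0.0332, edgeR throughout). The metallothionein gene MT2A (-0.50) was also among them. TXNIP stood at 70.7, 70.6 and 58.8 CPM in shNS and at 40.5, 36.6 and 35 CPM in shHP1γ. The 2 that rose were IRS2, an insulin receptor substrate (0.47), and MXI1, an antagonist of MYC (2.97 ± 0.851 to 6.89 ± 2.47 CPM, SD, n = 3). FKBP5 (-0.41, adjusted p = 0.109), TSC22D3 (-0.27, adjusted p = 0.308) and the receptor gene NR3C1 (-0.57, adjusted p = 0.494) did not pass. Part of this list was picked with results of these samples known, so its direction is not independent evidence. Without replicate 1, 13 were lower and 1 was higher of 34 tested, without replicate 2 the counts were 6 and 2 of 36, and without replicate 3 they were 3 and 0 of 36.

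Some genes of protein folding and of the amino acid response were higher with shHP1γ in dex. Of 16 tested genes of the unfolded protein response, 4 rose and 0 fell. They were the chaperone genes CALR (log2 fold change 0.28), HSP90B1 (0.36) and PDIA4 (0.32) and the secreted factor gene MANF (0.36). HSP90B1 stood at 1130, 1400 and 1310 CPM in shNS dex and at 1570, 1770 and 1560 CPM in shHP1γ dex (adjusted p = 0.00174, edgeR). The master chaperone gene HSPA5 was at 0.33 (adjusted p = 0.0881). Of 23 tested genes of the amino acid response and tRNA synthetases, 4 rose and 0 fell, namely the synthetase genes MARS (0.23) and SARS (0.27, a noncoding accession whose call was lost without replicate 1, adjusted p = 0.231), the sestrin gene SESN2 (0.39) and the pseudokinase gene TRIB3 (0.54). The threonyl-tRNA synthetase gene TARSL2, named above, is not on that list and was lower (-0.81). Both lists had positive medians in dex, 0.22 and 0.17, and medians of 0.02 and -0.07 in ethanol. Without replicate 1 the counts were 6 of 16 and 7 of 22, without replicate 2 they were 2 and 0, and without replicate 3 both were 0. The difference between dex and ethanol was not called for any member of the 2 lists.

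Some growth factor response genes were called, all of them higher. Of 14 genes of feedback in the MAPK pathway 3 rose and 0 fell, namely PHLDA1, the ETS factor gene ETV5 (0.94) and the antagonist gene SPRY2 (0.53). ETV5 stood at 68.5, 49.5 and 47.4 CPM in shNS dex and at 175, 72.4 and 81.6 CPM in shHP1γ dex. Its library of replicate 1 was the highest, and without replicate 1 the log2 fold change was 0.67 (adjusted p = 7.05e-05, edgeR). The call of SPRY2 was lost without replicate 1 (adjusted p = 0.23). Of 11 immediate early genes IER2 and JUN rose. IER2 stood at 110, 103 and 108 CPM in shNS and at 158, 188 and 183 CPM in shHP1γ (log2 fold change 0.72, SE 0.07, adjusted p = 7.22e-07, edgeR). JUN, a subunit of AP-1, was at 0.44 with overlapping groups, and its call was lost in that fit (adjusted p = 0.0846), in which 2 other immediate early genes were called lower. ID3, an inhibitor of basic helix-loop-helix factors, rose from 118 ± 6.89 to 195 ± 12.2 CPM (SD, n = 3, log2 fold change 0.73, adjusted p = 3.46e-07, edgeR).

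The cell cycle lists showed where replicate 1 differed. The median log2 difference of 28 DNA replication genes was -0.49 in replicate 1, 0.07 in replicate 2 and 0.02 in replicate 3. The ethanol libraries of the same numbers gave -0.43, 0.11 and 0.06. The median of 61 histone genes was -0.45 in replicate 1 in dex and 1.07 in replicate 1 in ethanol, and between -0.06 and 0.07 in the other 4 pairs. The part that this played in the other results was not tested, beyond the fits without replicate 1. Of the DNA replication genes 1 was called. CCNE2, which encodes cyclin E2, stood at 255, 250 and 250 CPM in shNS and at 161, 170 and 191 CPM in shHP1γ (log2 fold change -0.53, adjusted p = 0.000379, edgeR). Of 24 mitosis genes 2 were called (4 without replicate 1), the anaphase activator gene CDC20 (0.35) and the kinase gene PLK1 (0.52). PLK1 was at 225, 387 and 341 CPM in shNS and at 336, 562 and 460 CPM in shHP1γ, higher in each pair, although the groups overlapped. Of the histone list H2AFZ alone was called (0.45).

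**Figure D4:**
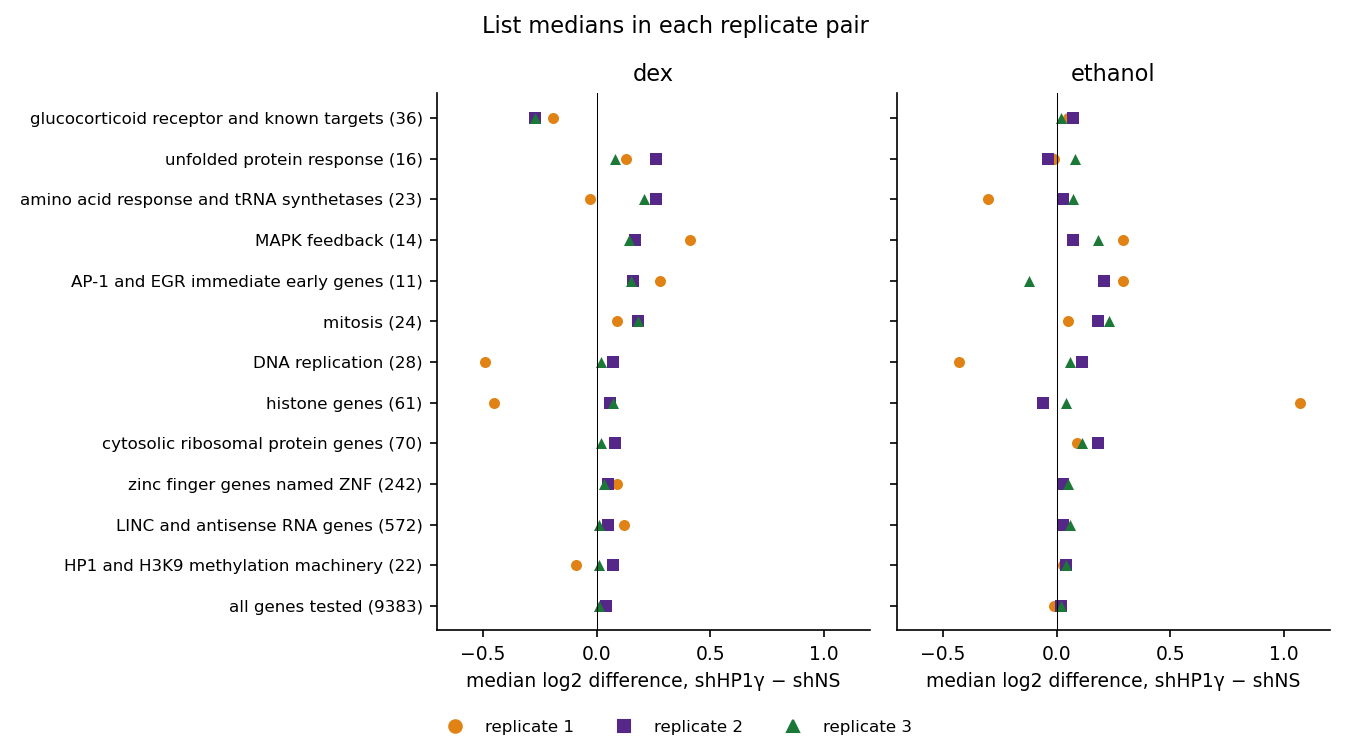
Median log2 difference between shHP1γ and shNS libraries of the same replicate number, for 12 lists and all genes tested (number of genes in brackets), in dex (left) and ethanol (right). Replicate 1 is the outlying point for DNA replication (-0.49 and -0.43) and histone genes (-0.45 and 1.07), and all 3 pairs are below 0 for glucocorticoid targets in dex.

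The other lists held few calls each. The cytokine regulators had 4 of 15, with SOCS1 (-0.73) and SOCS2 (-0.39) lower and the kinase genes PIM2 (0.25) and PIM3 (0.28) higher. Heat shock genes had 2 of 13 (HSPB1 0.31 and FKBP4 0.47), and interferon-stimulated genes 2 of 25 (GBP1 0.56 and MX2 0.84). Leaving out replicate 1 ended the call of MX2 (adjusted p = 0.0599, edgeR) and, among the genes named next, those of FYN (0.0998), PDK3 (0.0978), BYSL (0.116), MXI1 (0.249) and ZNF626 (0.0701). In the B-cell lists POU2AF1, a coactivator of octamer factors, rose (0.39), as did the tyrosine kinase gene FYN (0.53), while of 14 surface antigen genes CD81 rose (0.84) and CD72 fell (-0.53). Of the B-lineage transcription factors 1 of 13 was called, of the pre-B-cell receptor genes 1 of 8, of the potassium channels 2 of 9, of the p53 targets 2 of 14 and of NF-κB genes 1 of 9. Close to or under the background were genes of sterol synthesis (1 of 17, SQLE 0.30), glycolysis and hypoxia (1 of 25, PDK3 0.30), MYC and ribosome biogenesis (2 of 30, BYSL 0.22 and MXI1), ZNF genes (9 of 242) and cytosolic ribosomal proteins (2 of 70). The 2 ribosomal genes, RPL27 and RPLP0, have near copies elsewhere and are uncertain, as are ZNF626 (0.91) and ZNF726 (0.75), which belong to a family of similar genes. None was called by edgeR of 73 respiratory chain and ATP synthase genes, 11 clock genes, 8 BCL2 family genes, 6 V(D)J recombination genes, 4 germline genes, 4 protocadherin genes or 3 MHC class II genes. Of 572 LINC and antisense genes 24 were higher and 4 lower (4.90%). Without replicates 1, 2 and 3 in turn, 13, 16 and 7 were higher and 10, 1 and 0 were lower, so the excess of rises was small without replicate 1.

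The comparison of shHP1γ with shNS in ethanol shares no library with that in dex. It called 296 transcripts (2.91%), 165 higher (1.62%) and 131 lower (1.29%). The dex and ethanol comparisons are still not independent. Deviations from group means correlated at 0.83, 0.636 and 0.686 between the shHP1γ dex and shHP1γ ethanol libraries of replicates 1, 2 and 3. Of the 416 transcripts called in dex, 396 had the same sign in ethanol and 166 were called again in the same direction, 107 higher and 59 lower. These were 39.9% of the dex calls and 56.1% of the ethanol calls, and 0 were called in opposite directions. Without replicate 1 there were 158 ethanol calls and 125 in both treatments. The median ethanol log2 fold change was 0.36 for the transcripts higher in dex and -0.22 for those lower. TUFM was at 1.57 in ethanol, LINC01694 at 1.36, LINC01602 at 4.14, FBXO33 at 0.61, TRAK2 at -0.38 and LRRC14B at -0.39, all called. RASSF4 (-0.07), HOST2 (-0.01), C1orf186 (-0.17), CYTH3 (-0.15) and NFKBIA (-0.03) were not called in ethanol. Of these 5, the difference between the treatments itself passed the test for CYTH3 alone.

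**Figure D5:**
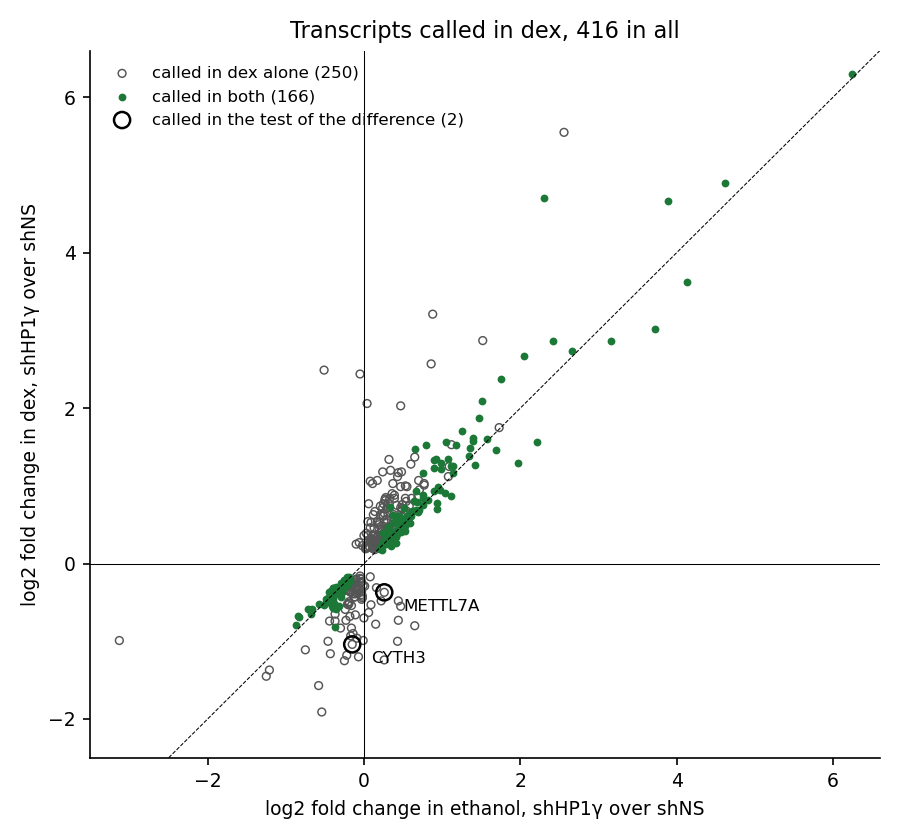
Log2 fold change on HP1γ depletion in ethanol (x) and in dex (y) for the 416 transcripts called in dex, with the dashed line marking equal change. Most of the 166 called in both lie near the line, and CYTH3 and METTL7A, circled, are those whose change differed between treatments by the test.

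In that test of the difference 2 of 10167 transcripts were called (0.0197%), 10 had an adjusted p of at most 0.1, and 387 (3.81%) an unadjusted p under 0.05. CYTH3 stood at 119 ± 1.5 CPM in shNS ethanol and 107 ± 18.6 in shHP1γ ethanol, against 411 ± 32.2 and 200 ± 16.7 in dex (SD, n = 3). The log2 fold change was thus more negative in dex by 0.89 (interaction log2 value -0.89, SE 0.12, adjusted p = 0.00247, edgeR). METTL7A, a methyltransferase-like gene, stood at 54.5 ± 6.18 and 65.6 ± 11.3 CPM in ethanol and at 196, 194 and 169 and at 145, 151 and 134 CPM in the shNS and shHP1γ dex libraries (interaction log2 value -0.64, SE 0.11, adjusted p = 0.0272, edgeR). Leaving out replicate 1 ended this call (adjusted p = 0.393). SOCS1, C1orf186 and TXNIP had interaction log2 values of -1.17, -0.76 and -0.67, each with an adjusted p of 0.0969.

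Set against G9a or GLP depletion in dex, HP1γ depletion shared some changes and not others. The 3 depletions share the shNS dex libraries, so their changes from shNS are given side by side only, and the test was made between the depleted cells directly. In it 415 transcripts differed (4.08%), 263 higher (2.59%) and 152 lower (1.5%) with shHP1γ, and 118 of the 416 were among them. Both comparisons use the same shHP1γ dex libraries, so their overlap and shared direction are partly built in and are not independent evidence. Of the 118, 73 were higher with shHP1γ than with both shNS and the mean of shG9a and shGLP, and 38 were lower than both. The other 7 were ID3 and LOC101927691, which rose less with shHP1γ, and METTL7A, KCNK3, LCN6, LAPTM5 and CDC42EP2, which fell less. ERGIC2, a gene of transport between the endoplasmic reticulum and Golgi, stood at 60.6, 73.4 and 65.3 CPM in shHP1γ dex and at 96.7 to 110 CPM in shNS dex. In shG9a and shGLP dex it stood at 92.7 to 114 CPM. Its log2 fold change was -0.65 with shHP1γ, -0.09 with shG9a and -0.02 with shGLP, and the direct difference passed (adjusted p = 2.45e-06, edgeR). RNF20, which encodes a ubiquitin ligase of histone H2B, stood at -0.33, -0.04 and -0.04 in the same order (adjusted p = 5.48e-05). CYTH3 stood at -1.04, -1.01 and -1.10 in that order, and RASSF4 at 33.9 to 42.2 CPM with shG9a or shGLP, and neither difference from shHP1γ passed (adjusted p = 0.983 and 0.356). Some rises ran against the other depletions. LINC00861 was at 2.67 with shHP1γ and at -1.59 and -1.47 with shG9a and shGLP, and ZNF626 was at 0.91, -1.50 and -2.35. ADNP2, a homeobox zinc finger gene, was at 0.43, -0.19 and -0.23 (adjusted p = 3.52e-09), and DDIT4L at 1.23, 0.29 and 0.64 (adjusted p = 4.3e-06).

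The counts of markers matched a B-precursor line in part. Of 13 precursor B cell markers CD79A, IGLL1, MME, RAG1 and RAG2 exceeded 1 CPM, and CD22, CD79B and DNTT were among those at 0 in all 6 libraries. Their summed level was 1580 to 1770 CPM in shNS dex and 1170 to 1720 CPM in shHP1γ dex, and 0 of 5 tested were called. Of 10 T cell markers 8 were at 0 and ZAP70 alone exceeded 1 CPM. Summed levels were 14.7 to 19.9 and 17.3 to 23.9 CPM for T cells, 3.07 to 3.69 and 3.01 to 9.64 CPM for myeloid cells and 2.21 to 2.42 and 2.20 to 3.45 CPM for erythroid cells and platelets, in shNS and shHP1γ dex. Of these only the epithelial and fibroblast gene COL1A1 was called, at 0.773 to 1.61 CPM in shNS and 2.20 to 2.73 CPM in shHP1γ, and its call was lost without replicate 1 (adjusted p = 0.0877, edgeR). Genes with several RefSeq accessions passed the filter less often (27.6%) than genes with 1 accession (39.2%), so genes with many isoforms are under-represented in the counts.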

How the data were processed

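RNA of 24 Nalm6 libraries had been sequenced in pairs of 75-base reads. Per the study's methods, reads were trimmed and aligned by HISAT2 to the human genome hg19 (GRCh37). The authors deposited read counts per RefSeq accession, made with the GenomicAlignments R package. Counting mode, strand setting and RefSeq release are not given in the sources used here. A table of the authors' own log2 fold changes and FDR values per comparison was not used. Their batch correction was not repeated, and the replicate number took its place.

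Transcripts above 1 CPM in at least 2 of 24 libraries (10167 of 64519) were kept, upper-quartile factors were set, and edgeR 4.0.16 (R 4.3.3) fitted group and replicate over all libraries. The replicate number was kept as a block. The labels' extraction protocol places the replicates of a condition on different days, without tying a number to a day, and the pairing across conditions rests on the data. Deviations from group means correlated at 0.154 to 0.83 between libraries of the same number in the shNS and shHP1γ groups. For shNS dex with shHP1γ dex the values were 0.388, 0.154 and 0.497 in replicates 1, 2 and 3. Values for libraries of different numbers are not given here. Values are CPM on library totals scaled by the upper-quartile factors, computed here, ± SD. The filter used unscaled totals. Intervals cover the spread between replicates, and counts come from PCR-amplified reads without molecular identifiers.

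Members, gene lists and tests were chosen with earlier results of these data known. Genes named by rule were CBX3 and the HP1 and H3K9 list, the 12 largest rises and falls (mean of at least 2 CPM, same direction in 3 of 3 pairs), the 5 smallest p in each direction and up to 4 called members per list. All others, among them TXNIP, BTG1, MT2A, IRS2, ERGIC2, RNF20, ADNP2, ID3, DDIT4L, METTL7A, FAM43A and CDH5, were chosen after their values were seen. Gene names came from RefSeq tables (63745 accessions matched). The fit was checked on simulated counts. Alternatives were TMM and RLE factors, DESeq2 1.42.0, limma 3.58.1, other filters, no block, fewer libraries and counts summed per gene.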

Additional observations from a re-analysis of the deposited data

Results flagged for a closer look

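In 2 transcripts the change on HP1γ depletion differed between dex and ethanol in the test of that difference. For CYTH3 the interaction log2 value was -0.89 (SE 0.12, adjusted p = 0.00247, edgeR), and in each replicate pair the dex level was lower with shHP1γ. Its adjusted p was 0.0126 when replicate 1 was left out, 0.0808 for replicate 2 and 0.551 for replicate 3, so the call was lost in the last 2 of these fits. For METTL7A (NM_014033) it was -0.64 (SE 0.11, adjusted p = 0.0272), and it was called in 0 of these 3 fits (adjusted p from 0.273 to 0.551).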

How the results depend on the processing

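With the replicate block left out, 175 transcripts were called in dex instead of 416, 66 in ethanol instead of 296, 1 in the interaction instead of 2, 190 against G9a and GLP depletion instead of 415, 57 in dex and again in ethanol instead of 166, and 10 dex-induced transcripts lower instead of 22. With only the groups compared in the fit, these counts were 206, 143, 0, 103, 86 and 14. Leaving out replicates or single libraries gave 63 (without replicate 3) to 396 (without replicate 1) calls in dex, 40 to 202 in ethanol, 0 to 3 in the interaction, 105 to 481 against G9a and GLP, 28 to 125 in both treatments and 3 to 25 dex-induced transcripts lower. The interaction gave 18 calls with DESeq2, 31 without a filter and 1 with upper-quartile factors set before the filter, an alternative chosen after seeing the data. Without a filter 38 dex-induced transcripts were lower. The dex response in shG9a and shGLP cells gave 69 transcripts with DESeq2, 52 with limma and 46 at a mean of at least 5 CPM, instead of 127. Without both shHP1γ libraries of replicate 1, a fit added after seeing the data, 615 transcripts were called in dex and 326 of the 416 were among them. No gene that was named by rule and called in the main fit changed sign in any of these fits where it was tested. DESeq2 called 203 higher and 246 lower, and factors set before the filter 137 and 252. The CBX3 reads were too few to measure its depletion, and transcripts under about 1 CPM rest on about 10 reads a library.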
